A study of Mus musculus with 22 samples.

Results

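The 9 genes Xbp1, Sel1l, Syvn1, Derl1, Derl2, Edem1, Herpud1, Os9 and Vcp were followed over the 4 groups of the study. They belong to ER-associated degradation (ERAD), the route by which misfolded proteins of the endoplasmic reticulum are destroyed. They were chosen by name, with earlier results of these data known, as a transcription factor, membrane and lumenal components and the extraction motor of this pathway. All 9 are among the 12596 genes of the deposited table, and all 9 passed the filter that the table's name states.

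The study compared mice infused with hTyr, the human form of tyrosinase, the enzyme of pigment synthesis, with mice infused with the fluorescent protein EYFP as the control. Every animal, control or not, came from the cross of Th-cre with Slc6a2-eGFP/Rpl10a on a C57Bl/6 background. The Slc6a2 promoter, that of the noradrenaline transporter, drives a green fluorescent tag on the ribosomal protein Rpl10a, so that ribosomes of noradrenergic cells can be immunoprecipitated with the RNA on them. From each animal there was an immunoprecipitated library (IP, labelled noradrenergic) and a library of the starting material (input, labelled total hindbrain). IP and input libraries with the same number in their titles were taken to come from the same animal. Animals are numbered here 1 to 5 (hTyr) and 1 to 6 (EYFP) in the order of these numbers. The 4 groups were hTyr IP (n = 5), hTyr input (n = 5), EYFP IP (n = 6) and EYFP input (n = 6). Age and the time after infusion are not given in the sources used here. The title places the study in the locus coeruleus, the main noradrenergic nucleus, and its question is what tyrosinase and the neuromelanin pigment it makes do to these cells.

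In ERAD, proteins that fail to fold are recognised in the lumen of the endoplasmic reticulum, passed through a membrane complex, ubiquitinated on its cytosolic face, pulled out by an ATPase and handed to the proteasome. Os9 is a lectin that reads trimmed glycans on the substrate, and Edem1 promotes that trimming. Sel1l is the scaffold that links the lectins to Syvn1, also known as Hrd1, the membrane ubiquitin ligase. Derl1 and Derl2 are derlins, membrane proteins of the exit route. Herpud1 is a stress-induced partner of the ligase complex. Vcp, also known as p97, is the ATPase that extracts substrates and also serves many other processes. Xbp1 encodes a transcription factor of the unfolded protein response, whose messenger is spliced by Ire1 into its active form. The table counts reads per gene, so it cannot separate the spliced from the unspliced Xbp1 messenger.

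All 9 genes are protein coding and lie on separate chromosomes except Xbp1 and Derl2, which are both on chromosome 11 (GENCODE M21, GRCm38). The lumenal genes are Os9 at chr10:127095650-127121131 (minus strand) and Edem1 at chr6:108828641-108859356 (plus strand). The ligase complex has Sel1l at chr12:91806043-91849157 (minus strand), Syvn1 at chr19:6046576-6053712 (plus strand) and Herpud1 at chr8:94386438-94395377 (plus strand). The derlins are Derl1 at chr15:57869502-57892448 (minus strand) and Derl2 at chr11:71007164-71019841 (minus strand). The remaining genes are Vcp at chr4:42979963-43000507 (minus strand) and Xbp1 at chr11:5520659-5525893 (plus strand).

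Several of these genes are known targets of the unfolded protein response, so their start sites were searched for the letters of its response elements. Windows of 250 bases before to 50 bases after the start were taken from RefSeq (GRCm38.p6). Windows were matched for 8 of the 9 genes, 9 windows in all since Derl2 has a pair, and Derl1 had none. Both strands were searched for ERSE (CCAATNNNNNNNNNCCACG), ERSE-II (ATTGGNCCACG), UPRE (TGACGTGG) and the short element CCACG, which ends both ERSE forms and lies, on the other strand, within UPRE, so that the searches overlap. ERSE was found in 1 of the 8 genes, Syvn1, against 0.177% of the 9578 genes of the table with a window (0.119% of all 32851 windows). ERSE-II was also found in 1, Herpud1, against 0.0835% of these genes (0.0365% of windows), and UPRE in 1, Vcp, against 1.08% (0.676% of windows). The short element was found in 7 of the 8 genes, all but Xbp1, against 52.5% of these genes (32.8% of windows). The 250 bases before the start of these 3 genes are printed on the gene's own strand, because they hold the full matches, with the match in capitals. They lie at chr19:6046326-6046575 (plus strand) for Syvn1, chr8:94386179-94386428 (plus strand) for Herpud1 and chr4:43000508-43000757 (minus strand) for Vcp.
Syvn1: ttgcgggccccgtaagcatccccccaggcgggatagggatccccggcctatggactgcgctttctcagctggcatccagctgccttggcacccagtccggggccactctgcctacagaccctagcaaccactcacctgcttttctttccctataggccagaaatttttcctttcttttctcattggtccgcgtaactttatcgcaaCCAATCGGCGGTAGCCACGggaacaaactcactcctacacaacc
Herpud1: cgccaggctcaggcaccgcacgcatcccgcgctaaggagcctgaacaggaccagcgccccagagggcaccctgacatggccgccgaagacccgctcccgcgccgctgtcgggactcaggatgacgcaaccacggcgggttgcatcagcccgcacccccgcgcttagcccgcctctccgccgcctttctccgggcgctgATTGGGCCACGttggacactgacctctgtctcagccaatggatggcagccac
Vcp: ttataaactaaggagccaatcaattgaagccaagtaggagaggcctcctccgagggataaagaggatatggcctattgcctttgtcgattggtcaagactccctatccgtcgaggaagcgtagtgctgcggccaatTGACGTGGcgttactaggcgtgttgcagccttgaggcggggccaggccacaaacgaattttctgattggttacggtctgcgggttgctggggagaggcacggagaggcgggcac
Counted from the start site, the match lies at -44 to -26 in Syvn1, at -52 to -42 in Herpud1 and at -114 to -107 in Vcp. A match describes letters in a window and says nothing of binding. Several of the genes were known targets beforehand, so the counts beside the shares of all genes are a description only.

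Over the 22 libraries the table held 12654489 to 25100142 reads per library, and single libraries held from 250 reads (Edem1) to 7067 reads (Vcp) of a member. Beyond reads, cell markers set what the IP values stand for. All 10 noradrenergic markers were higher in IP in both treatments (limma, adjusted p below 0.05), and in EYFP the log2 difference between IP and input was 1.99 for Th, 4.02 for Dbh and 3.94 for Slc6a2. The summed level of these 10 markers was 609 to 1291 CPM (reads scaled to library size) in EYFP IP and 742 to 2099 in hTyr IP, against 169 to 201 in EYFP input and 173 to 216 in hTyr input. The 10 oligodendrocyte markers summed to 6048 to 7789 CPM in EYFP IP and 6035 to 8355 in hTyr IP, against 6409 to 8427 and 7228 to 9025 in the inputs. The 10 astrocyte markers gave 3104 to 4421 and 3380 to 4243 CPM in the IP groups, against 2746 to 3317 and 2825 to 3511 in the inputs. The 10 microglial markers gave 248 to 498 and 274 to 514 CPM in IP, against 248 to 427 and 276 to 449 in input, and the endothelial markers, of which the table holds 3 of 5, gave 15.6 to 37.3 CPM over all libraries. In every library each of these markers in the table had reads, at the lowest 17, for a noradrenergic marker in input. In IP the lowest count of a marker of the other cell types was 41 reads, for an endothelial marker in hTyr IP. The IP libraries thus hold RNA of other cells, whose part in the values that follow was not tested. In such bulk libraries fewer cells of a type and less RNA per cell cannot be told apart.

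Per kilobase of exon, the 9 genes spanned a wide range of levels, and the extraction motor and the lectin stood highest in the noradrenergic fraction. In EYFP IP the order on the log2 CPM per kilobase scale was Vcp (5.92), Os9 (5.70), Herpud1 (5.19), Xbp1 (5.0), Derl1 (4.87), Sel1l (3.78), Syvn1 (2.72), Derl2 (1.55) and Edem1 (1.49). In that order the ranges over libraries of Vcp and Os9, of Herpud1 and Xbp1, of Xbp1 and Derl1, and of Derl2 and Edem1 overlapped. Neighbours were not compared within single libraries, so an overlap does not show that their levels were equal. The hTyr IP libraries had the same order and the same overlapping neighbours, from Vcp at 5.87 and Os9 at 5.85 to Derl2 at 1.72 and Edem1 at 1.66. In EYFP input the order began with Os9 (5.33), Xbp1 (5.19), Herpud1 (4.84) and Vcp (4.75) and ended with Edem1 (1.87) and Derl2 (1.62). There the only neighbours that did not overlap were Derl1 (4.70) and Sel1l (3.54), Sel1l and Syvn1 (3.01), and Syvn1 and Edem1. Vcp was thus first in the IP order and behind Os9, Xbp1 and Herpud1 in EYFP input. Lengths are those of merged exons in GENCODE M21 (GRCm38), and transcripts shorter than these would raise a gene's place.

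**Figure D1:**
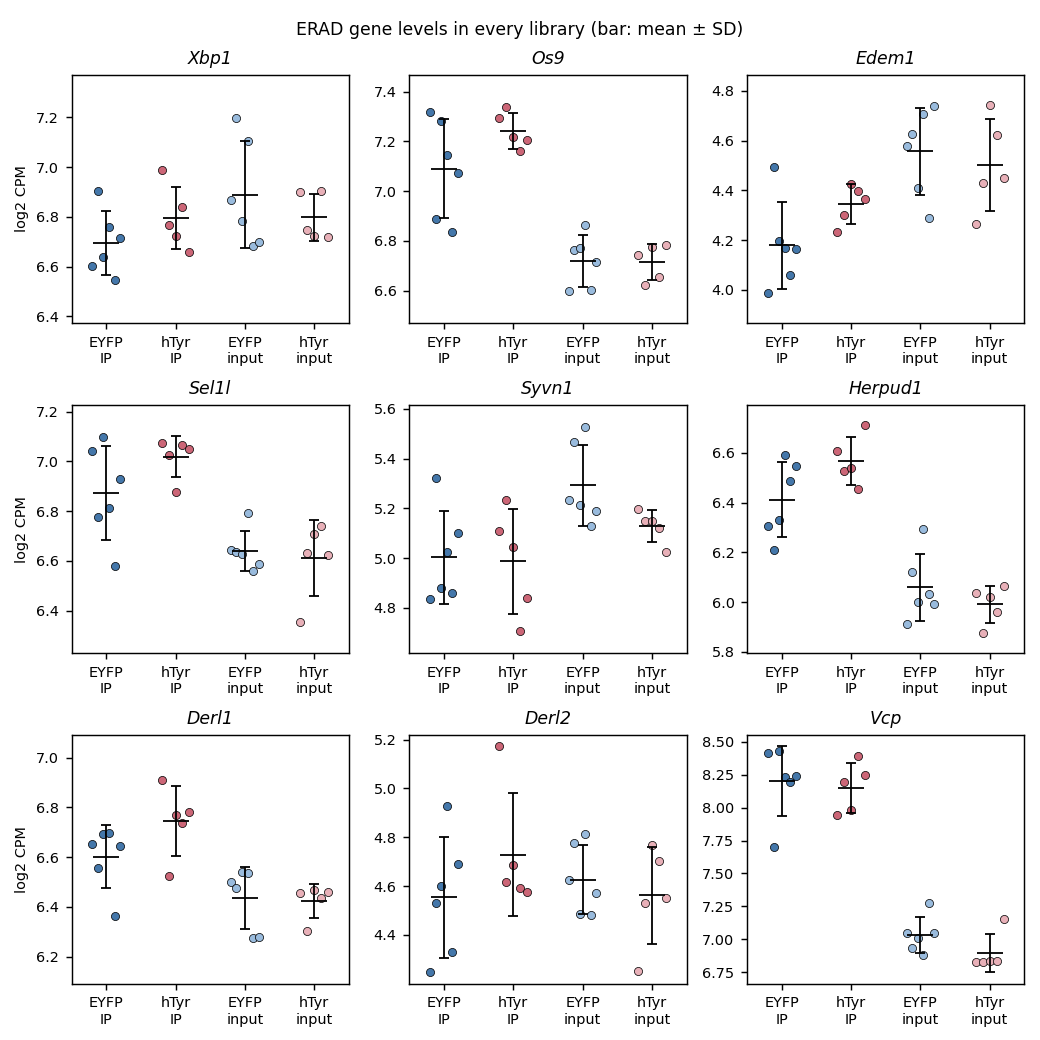
Level of each of the 9 genes (y axis, log2 CPM, with its own range in each panel) in the 22 libraries by group (x axis); points are libraries, bars are the mean with SD. The IP and input libraries of Vcp do not overlap in either treatment, while the hTyr and EYFP libraries of all 9 genes overlap in IP and in input.

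The first comparison asks whether hTyr altered the ERAD genes in the noradrenergic fraction. In IP none of the 9 had an adjusted p below 0.05 (limma, Benjamini-Hochberg over the whole table), where 0.0556% of all genes did. The count at an unadjusted p below 0.05 was also 0 of 9, against 6.19% of all genes, and voom in limma on the recovered reads gave 0 of 9. The hTyr and EYFP libraries overlapped for all 9 genes, and 0.651% of all genes had groups that did not. The estimates lay between -0.050 (Vcp) and 0.17 (Derl2) on the log2 scale, 7 above 0 and 2 below, with a median of 0.15, against a median of -0.0055 and 48.2% above 0 for all genes. The 9 genes were measured in the same libraries and are not replicates of one another.

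Among the lumenal genes, Os9 was at 7.29, 7.34, 7.22, 7.16 and 7.21 log2 CPM in the hTyr IP libraries of animals 1 to 5 in order. In EYFP IP it ranged from 6.84 over a median of 7.11 to 7.32. All 5 hTyr libraries lay within the upper part of the EYFP range or just above it, and the difference was 0.15 (SE 0.0931, 95% interval -0.044 to 0.35, adjusted p = 0.841). Edem1 read 4.23, 4.30, 4.43, 4.40 and 4.37 in the same hTyr libraries, against 3.99 to 4.49 with a median of 4.17 in EYFP IP. Its groups overlapped, with a difference of 0.17 (SE 0.104, 95% interval -0.052 to 0.39, adjusted p = 0.847).

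For the ligase complex, the scaffold Sel1l was at 7.07, 7.03, 6.88, 7.07 and 7.05 log2 CPM in hTyr IP (animals in the same order) and at 6.58 to 7.10, median 6.87, in EYFP IP. All 5 hTyr libraries lay inside the EYFP range, 4 of them close together and that of animal 3 lower. The difference was 0.15 (SE 0.0919, 95% interval -0.049 to 0.34, adjusted p = 0.852). The ligase Syvn1 was at 5.11, 5.23, 5.04, 4.71 and 4.84 in hTyr IP and at 4.83 to 5.32, median 4.95, in EYFP IP. Its hTyr libraries reached from below the lowest EYFP library to near the highest, and the difference was -0.017 (SE 0.115, 95% interval -0.26 to 0.23, adjusted p = 0.988). Herpud1 was at 6.61, 6.52, 6.54, 6.45 and 6.71 in hTyr IP, against 6.21 to 6.59 with a median of 6.41 in EYFP IP. Animals 1 and 5 lay above every EYFP library and the other three within their range. Its difference of 0.16 (SE 0.0859, 95% interval -0.026 to 0.34) had the lowest unadjusted p of the 9, 0.0888 (adjusted p = 0.827).

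Of the derlins, Derl1 was at 6.91, 6.52, 6.77, 6.74 and 6.78 log2 CPM in hTyr IP and at 6.36 to 6.70, median 6.65, in EYFP IP. The hTyr libraries lay above the EYFP range except that of animal 2 (difference 0.14, SE 0.0863, 95% interval -0.039 to 0.33, adjusted p = 0.837). Derl2 was at 5.17, 4.62, 4.69, 4.59 and 4.58 in hTyr IP and at 4.25 to 4.93, median 4.57, in EYFP IP. Only hTyr animal 1 lay above the EYFP range. The Derl2 difference, 0.17 (SE 0.135, 95% interval -0.11 to 0.46, adjusted p = 0.869), was the largest of the 9 and rested on that animal: without it the value was 0.063.

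The motor Vcp was at 7.94, 8.19, 7.98, 8.40 and 8.25 log2 CPM in hTyr IP and at 7.70 to 8.43, median 8.24, in EYFP IP. The groups covered the same range, with a difference of -0.050 (SE 0.122, 95% interval -0.31 to 0.21, adjusted p = 0.966), which was 0.0024 without hTyr animal 1 and -0.15 without the IP library of EYFP animal 2. Xbp1 was at 6.99, 6.77, 6.72, 6.84 and 6.66 in hTyr IP and at 6.55 to 6.90, median 6.68, in EYFP IP. The library of hTyr animal 1 was the one above the EYFP range (difference 0.10, SE 0.0843, 95% interval -0.079 to 0.28, adjusted p = 0.894). Over the 9 genes the 95% intervals reached from 0.808-fold to 1.38-fold at their outermost, and each gene's own interval is the one given with its value.

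Marker levels and depth are given beside these estimates, and their part in them was not tested. Of the 10 noradrenergic markers 9 had estimates above 0 in the same comparison (median 0.32, with Th at 0.99, Dbh at 0.040 and Slc6a2 at -0.39). Of the 10, 3 had an unadjusted p below 0.05 and 0 passed (limma, with an adjusted p of 0.533 for Th). The hTyr IP libraries held 12654489 to 19043798 reads and the EYFP IP libraries 15680491 to 20368032, ranges that overlap.

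**Figure D2:**
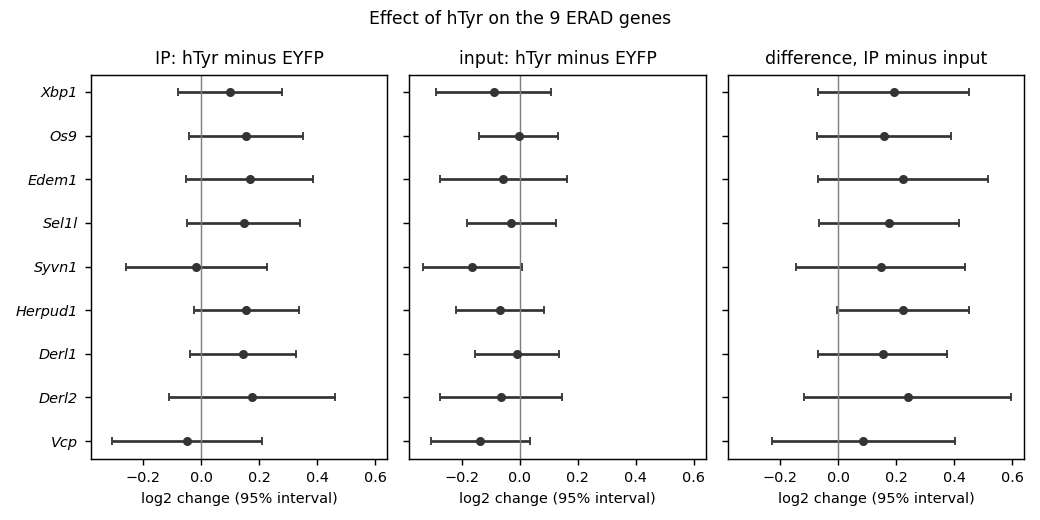
Difference between hTyr and EYFP (x axis, log2 change; points are limma estimates, bars 95% intervals) for the 9 genes in IP, in input, and the IP difference minus the input difference. Every interval drawn includes 0. Those of the last panel are from the fit without the animal as a block, so they do not use the pairing of IP and input. Intervals of the blocked fit are not shown. The IP estimates run from -0.050 to 0.17 and the input estimates from -0.16 to -0.0045.

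In input the same question was asked of total hindbrain RNA. None of the 9 genes passed (limma, adjusted p between 0.990 and 0.998, where 0.00794% of all genes passed), 0 of 9 had an unadjusted p below 0.05, against 3.03% of all genes, and voom gave 0 of 9. The hTyr and EYFP input libraries overlapped for all 9, and 0.175% of all genes had groups that did not. The 9 estimates were all below 0, from -0.16 (Syvn1, SE 0.0805, unadjusted p = 0.0590) to -0.0045 (Os9), with a median of -0.065 against -0.0089 for all genes, of which 46.4% were above 0. In the same comparison the noradrenergic marker Slc6a2 passed, at -0.91 (limma, adjusted p = 0.0339), the only gene of the table to do so. Its call was lost with all 22 libraries in one fit. With an animal left out it held only without EYFP animal 1 or hTyr animal 4. Including Slc6a2, 6 of the 10 noradrenergic markers lay below 0 (median -0.057). Of the 10 oligodendrocyte markers 9 lay above 0 (median 0.093), of the 10 microglial markers 8 (median 0.076) and of the 10 astrocyte markers 5. The part of these markers in the values of the 9 genes was not tested. Syvn1 was at 5.20, 5.15, 5.15, 5.12 and 5.02 log2 CPM in hTyr input and at 5.13 to 5.53, median 5.22, in EYFP input, so that the groups overlapped. Vcp differed by -0.14 and Xbp1 by -0.090. The signs of the smallest values depended on the scaling: Os9 was at 0.0223 and Derl1 at 0.0167 when each library was centred on its median.

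The interaction, the hTyr difference in IP minus that in input, was above 0 for all 9 genes, from 0.086 (Vcp) to 0.24 (Derl2), with a median of 0.17 against 0.0024 for all genes, of which 50.7% were above 0. The noradrenergic markers lay the same way and further, with 10 of 10 above 0 and a median of 0.40, and their part in the values of the 9 was not tested. Without hTyr animal 1 the interaction of Derl2 was 0.050 and that of Sel1l 0.097, from 0.17. In the fit without the animal as a block, none of the 9 passed (limma, adjusted p = 0.996 for each, where 0.00794% of all genes passed). In that fit none had an unadjusted p below 0.05, against 3.31% of all genes, and voom, also without the block, gave 0 of 9. Herpud1 came nearest there, with 0.22 (SE 0.110, unadjusted p = 0.0533). These unadjusted p-values do not use the pairing of IP and input by animal, and those of the blocked fit are not given here. Within animals, IP minus input of Herpud1 was 0.35 ± 0.16 (SD, n = 6) in EYFP and 0.58 ± 0.071 (SD, n = 5) in hTyr. Fitting the animal as a block gave 0 of 9 at the adjusted threshold, where 0.0397% of all genes passed. An effect on these genes particular to the noradrenergic fraction was therefore not detected at the adjusted threshold with these animals.

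Immunoprecipitation against input compares the level of each ERAD gene in the immunoprecipitated RNA with that in total hindbrain RNA, and here the 9 genes lay on both sides. The motor Vcp, the lectin Os9, the scaffold Sel1l and Herpud1 were higher in IP in both treatments, while the ligase Syvn1 and the trimming factor Edem1 were lower in IP in EYFP animals and did not pass in hTyr animals. In EYFP animals 6 of 9 genes passed (limma, adjusted p below 0.05), 4 higher and 2 lower in IP, where 56.5% of all genes passed, 28.5% higher and 28.1% lower. In hTyr animals 5 of 9 passed, all 5 higher, where 54.4% of all genes passed, 27.4% higher and 27.0% lower. In this fit without the block, the share of the 9 that passed in either direction was thus near that of all genes. With the animal as a block 8 of 9 passed in EYFP, where 64.6% of all genes did, and 5 of 9 in hTyr, where 59.1% did. The median difference of the 9 was 0.17 in EYFP and 0.32 in hTyr, against -0.025 and -0.036 for all genes. By the same test 4 of the 10 astrocyte markers were higher and 2 lower in IP in EYFP, and 5 and 2 in hTyr. Of the 10 oligodendrocyte markers 3 were higher and 4 lower in EYFP, and 4 and 4 in hTyr. The highest differences were 0.65 and 0.79 for astrocyte markers and 1.03 and 1.18 for oligodendrocyte markers. Markers of other cells thus also rose in IP, and the part of such cells in the values of the 9 was not tested.

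Vcp had by far the largest enrichment of the 9. In EYFP input it was at 6.88 to 7.27 log2 CPM, median 7.03, and in hTyr input at 6.82, 6.82, 6.83, 6.84 and 7.16, well below every IP library. IP exceeded input by 1.17 (SE 0.106, adjusted p = 9.13e-07, 2.25-fold) in EYFP and by 1.26 (SE 0.0992, adjusted p = 4.68e-08, 2.39-fold) in hTyr. In EYFP only 191 of the 12596 genes had a larger enrichment, and in hTyr 323. Within animals the difference lay between 0.77 and 1.42 in EYFP and between 1.10 and 1.56 in hTyr. The Vcp exons share 352 bases with 1700022I11Rik on the opposite strand, and whether counting used strand is not given in the sources used here, so reads of those bases cannot be assigned.

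Herpud1 was at 5.91 to 6.29 log2 CPM, median 6.02, in EYFP input and at 6.04, 5.88, 6.02, 5.96 and 6.06 in hTyr input. It was higher in IP by 0.35 (SE 0.0813, adjusted p = 0.00161) in EYFP and by 0.58 (SE 0.0790, adjusted p = 1.39e-05) in hTyr, where no IP library reached down to an input library. Os9 was at 6.60 to 6.87, median 6.74, in EYFP input and at 6.74, 6.62, 6.77, 6.65 and 6.78 in hTyr input. Its difference was 0.37 (SE 0.0863, adjusted p = 0.00173) in EYFP and 0.53 (SE 0.0743, adjusted p = 1.75e-05) in hTyr. Both genes were higher in IP in 6 of 6 EYFP and 5 of 5 hTyr animals, as 27.8% and 28.4% of all genes were.

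Sel1l was at 6.56 to 6.79 log2 CPM, median 6.63, in EYFP input and at 6.36, 6.63, 6.71, 6.74 and 6.62 in hTyr input. It was higher in IP by 0.23 in EYFP (SE 0.0817, adjusted p = 0.0232) and by 0.41 in hTyr (SE 0.0859, adjusted p = 0.000771), in 6 of 6 and 5 of 5 animals. The EYFP call did not hold without animal 1, 3 or 6 (adjusted p = 0.0798, 0.0949 and 0.0809) or with each library centred on its median (0.18, adjusted p = 0.0601). Derl1 was at 6.27 to 6.54, median 6.49, in EYFP input and at 6.45, 6.30, 6.47, 6.44 and 6.46 in hTyr input. In hTyr it was higher in IP by 0.32 (SE 0.0834, adjusted p = 0.00379), and in EYFP its difference of 0.17 had an adjusted p of 0.0668, which was 0.0202 with the animal as a block and 0.0407 without EYFP animal 5. In hTyr the IP and input libraries of Vcp, Herpud1, Os9, Sel1l and Derl1 did not overlap, as for 37.5% of all genes, and in EYFP this held for Vcp alone, where the share of all genes was 30.1%.

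Edem1 and Syvn1 lay on the other side. Edem1 was at 4.29 to 4.74 log2 CPM, median 4.60, in EYFP input and at 4.26, 4.43, 4.75, 4.62 and 4.45 in hTyr input, and its IP values were the lower ones in 6 of 6 and 5 of 5 animals, as for 28.3% and 28.9% of all genes. Its IP minus input difference was -0.38 (SE 0.0994, adjusted p = 0.004003) in EYFP, and in hTyr the difference was -0.16 (adjusted p = 0.228). Syvn1 had an IP minus input difference of -0.29 (SE 0.0959, adjusted p = 0.0172) in EYFP, in 6 of 6 animals, and in hTyr the difference was -0.14 (adjusted p = 0.258), with 4 of 5 animals below 0. The EYFP call of Syvn1 did not hold without animal 1 or 4 (adjusted p = 0.0502 and 0.0624). Syvn1 shares 91 exon bases with Mrpl49 on the opposite strand, a gene that is also in the table.

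Xbp1 and Derl2 passed in neither treatment. Xbp1 was at 6.68 to 7.20 log2 CPM, median 6.83, in EYFP input and at 6.90, 6.75, 6.72, 6.91 and 6.72 in hTyr input. In EYFP its IP value was lower in 5 of 6 animals, with a difference of -0.19 and an adjusted p of 0.0865, which was 0.0107 with the animal as a block and 0.032 with median centring. In hTyr the difference was -0.0036 (adjusted p = 0.974). Derl2 was at 4.48 to 4.81, median 4.60, in EYFP input and at 4.25, 4.53, 4.77, 4.70 and 4.55 in hTyr input. Its difference between IP and input was -0.072 (adjusted p = 0.592) in EYFP and 0.17 (adjusted p = 0.286) in hTyr, where animal 1 gave 0.92 and the other animals lay near 0. Without that animal the value was -0.021. Derl2 shares 231 exon bases with Mis12 on the opposite strand, also a gene of the table. With the animal as a block 8 of the 9 genes passed in EYFP, 5 higher and 3 lower, where 64.6% of all genes passed, and 5 of 9 passed in hTyr, where 59.1% did.

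**Figure D3:**
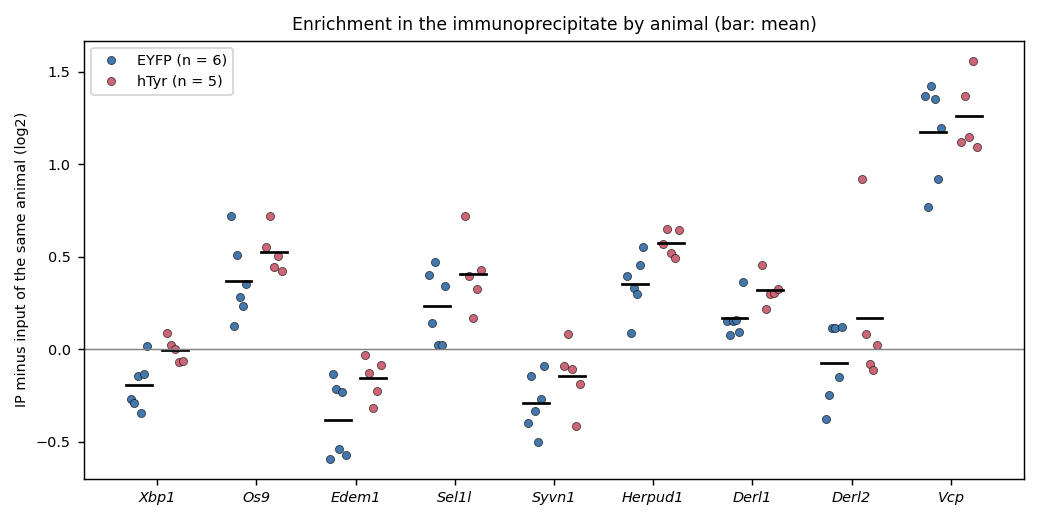
Level in IP minus level in input of the same animal (y axis, log2) for the 9 genes (x axis); points are animals and black bars are group means. Vcp lies between 0.77 and 1.56 in all animals, Edem1 lies below 0 in all of them, and Derl2 of hTyr animal 1 stands at 0.92.

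The rest of the pathway was described from a list of 65 further ERAD genes, of which 63 were in the table and March6 and Derl3 were not analysed here. This list was chosen with earlier results of these data known, so its counts beside those of all genes are a description only. In IP 1 of the 63 changed with hTyr (limma, adjusted p below 0.05), where 0.0556% of all genes did, and 6 had an unadjusted p below 0.05, where 6.19% of all genes did. That gene was Dnajb9, also known as ERdj4, a lumenal co-chaperone that delivers misfolded proteins to ERAD. In rising order it was at 5.93, 6.02, 6.14, 6.26 and 6.30 log2 CPM in the hTyr IP libraries and at 5.35 to 5.74, median 5.60, in EYFP IP, so that the groups did not overlap. The rise was 0.57 (SE 0.0941, adjusted p = 0.0287), 1.48-fold. In input Dnajb9 was at 5.58 ± 0.13 (SD, n = 5) in hTyr and 5.58 ± 0.20 (SD, n = 6) in EYFP, and the interaction was 0.56 (adjusted p = 0.455). The IP call held without hTyr animal 3 (adjusted p = 0.0202) or EYFP animal 4 (adjusted p = 0.0354) and was lost without any other: leaving out hTyr animal 1, 2, 4 or 5 or EYFP animal 1, 2, 3, 5 or 6 in turn gave differences of 0.52 to 0.59 with adjusted p between 0.0619 and 0.167.

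The next lowest p-values of the list in IP were those of Ube2j1, a membrane-anchored ubiquitin-conjugating enzyme of ERAD (0.22, SE 0.0817, adjusted p = 0.769), and Usp19, a deubiquitinase (-0.24, SE 0.0899, adjusted p = 0.771). The 63 genes had a median difference of 0.048 in IP and 69.8% of them lay above 0. In input 0 of the 63 passed and 1 had an unadjusted p below 0.05, and in the interaction 0 passed and 4 had one (limma, and voom gave 0 in both). Of the stress sensors that stand upstream of these genes, Ern1, which encodes Ire1, was not analysed here. Atf6 differed by -0.0070 (adjusted p = 0.994) and Eif2ak3, which encodes Perk, by 0.099 (adjusted p = 0.903) in IP. Hspa5, the chaperone BiP whose release activates the sensors, was, in rising order, at 8.42, 8.58, 8.75, 8.89 and 9.15 log2 CPM in hTyr IP and at 7.85 to 8.61, median 8.23, in EYFP IP, with overlapping groups. Its difference was 0.53 (SE 0.137, unadjusted p = 0.00125, adjusted p = 0.486).

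Between IP and input the other ERAD genes spread to both sides, as the 9 did. In EYFP 25 of the 63 passed (limma), 12 higher and 13 lower, and in hTyr 32 passed, 19 higher and 13 lower, against the 56.5% and 54.4% of all genes given above. With the animal as a block 30 passed in EYFP, 12 higher and 18 lower, where 64.6% of all genes did, and 33 in hTyr, 19 higher and 14 lower, where 59.1% did. The medians were -0.033 in EYFP and 0.026 in hTyr. The largest rises in EYFP were those of Ngly1, which strips glycans from extracted proteins (0.96, adjusted p = 5.65e-06), Faf1, a Vcp cofactor (0.94, adjusted p = 1.17e-05), and Usp25, a deubiquitinase (0.57, adjusted p = 0.000152). The largest falls were those of Yod1, a Vcp-associated deubiquitinase (-0.77, adjusted p = 0.000614), Ubqln4, a proteasome shuttle (-0.63, adjusted p = 9.12e-05), and Ankzf1, a Vcp-binding factor of ribosome quality control (-0.57, adjusted p = 0.00621). In hTyr the same genes gave 1.16, 0.94 and 0.58, and -0.68, -0.66 and -0.65. Vcp itself exceeded all 63 in both treatments. Hspa5 was higher in IP by 1.05 in EYFP and 1.71 in hTyr, and Atf6 by 0.56 and 0.68, while Eif2ak3 differed by -0.012 and 0.16.

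**Figure D4:**
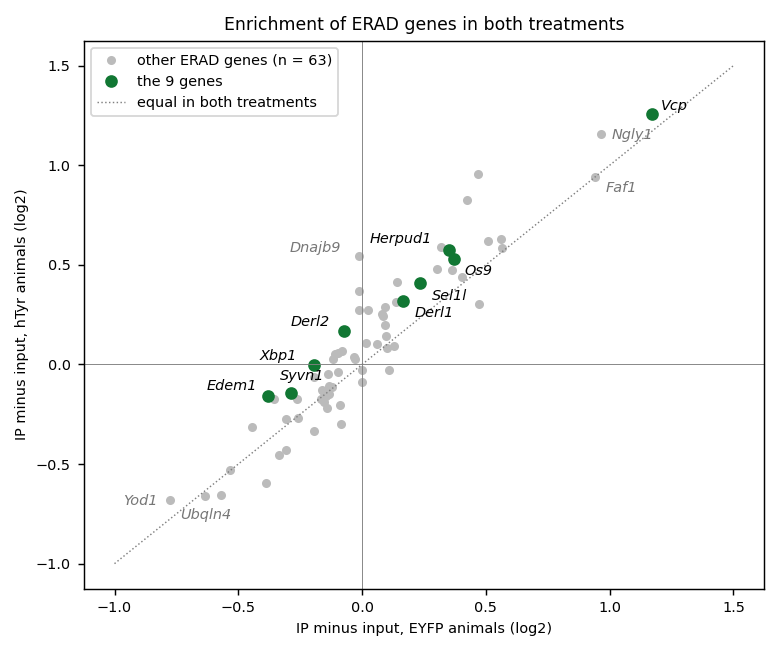
IP minus input in EYFP animals (x axis, log2) against the same in hTyr animals (y axis, log2) for the 9 genes (green) and the 63 other ERAD genes (grey); the dotted line marks equal values. Vcp stands at 1.17 and 1.26, beyond every other gene of the list, and Edem1 and Syvn1 lie below 0 in both.

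Derl2, the gene with the largest hTyr difference in IP, was compared with every gene of the table over the 11 IP libraries, each value centred on its group mean. The 5 genes with the highest Pearson's r were Ndn (0.900, Spearman's rho 0.855), Arl6ip1 (0.877, rho 0.764), H13 (0.866, rho 0.845), Spcs2 (0.863, rho 0.900) and Pin4 (0.857, rho 0.736). They are the highest of 12595 candidates over 11 libraries that share depth and cell makeup, so they are a description. Without hTyr animal 1 the r values were 0.773 to 0.834. Among the other members r with Derl2 ran from -0.311 for Vcp (rho -0.409) to 0.656 for Xbp1 (rho 0.736, r without that animal 0.492), with 0.593 for Derl1 (rho 0.591, r without it 0.458) and 0.397 for Syvn1 (rho 0.609, r without it 0.343).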

How the data were processed

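Per the submitters' processing notes, STAR, featureCounts and the mm10 build were used. The authors deposited one table of log2 values, by its name filtered, normalized and log transformed. The normalization method, the filter, the annotation and the strand setting are not given in the sources used here. The deposited log2 values proved to be CPM with a pseudocount averaging 2 reads, and 100% of values in every library came back as whole reads (within 0.1 read), 12654489 to 25100142 reads per library.

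Genes were tested with limma 3.58.1 in R 4.3.3 (lmFit, eBayes with trend, two-sided) over all 12596 genes with Benjamini-Hochberg adjustment and a threshold of 0.05. The scripts were tested on simulated data. Intervals are 95% intervals of the fit, and the reads carry no molecular identifiers. The titles give one number per IP and input pair, taken here as that of the animal, and nothing more on collection. The p-values therefore measure the spread between these animals' libraries.

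The number in the titles was taken as that of the animal and as pairing IP with input. Deviations from the group means correlated between the IP and input libraries of the same number (mean r 0.448, 0.279 to 0.626 over 11 animals). Between animals of a treatment the mean r was -0.096. Centring on group means itself pulls that value below 0 when the within-animal values are above 0, so it is no separate evidence. The main fit has no block, and for the 9 genes and the counts over lists the blocked fit is given where it changes a call.

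The 9 genes and all lists were chosen with earlier results of these data known. Beside the 9, the text names of the other ERAD genes those past the threshold for hTyr against EYFP or the interaction, the 3 with the lowest p in IP, and the 3 largest rises and 3 largest falls of IP against input in EYFP. It also names 4 stress sensor genes, 3 noradrenergic markers and the 5 genes most like the gene with the largest hTyr difference in IP. The table's name H13 was used for Hm13. Alternatives were no variance trend, quantile normalization, median centring, the upper 75% of genes by mean, log2(CPM + 5), voom in limma on the recovered reads, all 22 libraries in one fit, the replicate block and leaving out each animal. Symbols were matched to GENCODE M21 (GRCm38), and promoter sequences are from RefSeq (GRCm38.p6). Figures were drawn with matplotlib 3.10.9 in Python 3.11.15.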

Additional observations from a re-analysis of the deposited data

Results flagged for a closer look

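In 6 of the 36 sets of libraries (9 genes in 4 groups) one library stood apart from the others by Dixon's criterion, whose nominal rate is about 1 in 20 groups. The sets come from the same libraries and are not independent, and the share over all genes was not computed. The count therefore cannot be read as a trait of the 9. Derl2 in hTyr IP was highest in animal 1, at 5.17 log2 CPM (631 reads), with the next library at 4.69. Sel1l in hTyr IP was lowest in animal 3, at 6.88 (1656 reads), with the next at 7.03. Vcp in EYFP IP was lowest in animal 2, at 7.70 (3547 reads), with the next at 8.19. In input, Vcp of hTyr animal 5 was highest, at 7.16 (2812 reads) with the next at 6.84, and Derl1 of hTyr animal 2 was lowest, at 6.30 (1520 reads) with the next at 6.44. Sel1l of EYFP animal 4 was the highest of its input group, at 6.79 (1811 reads), with the next at 6.64.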

How the results depend on the processing

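Outside the leave-outs, 307 of the alternative values of the 9 genes kept direction and side of the threshold, 4 reversed, 3 gained a call and 1 lost one. The reversals were Os9 in input, at 0.000918 with quantile normalization, 0.0223 with median centring and 0.0022 with voom, and Derl1 in input, at 0.0167 with median centring. With animals left out 369 values kept both, 21 reversed, 5 lost a call and 1 gained one. The genes with a reversal ranged in hTyr against EYFP from -0.150 to 0.0024 (Vcp, IP), -0.079 to 0.053 (Syvn1, IP), -0.061 to 0.036 (Sel1l, input), -0.042 to 0.020 (Derl1, input), -0.116 to 0.013 (Derl2, input), -0.117 to 0.0032 (Edem1, input) and -0.029 to 0.025 (Os9, input), and in hTyr IP against input from -0.027 to 0.012 (Xbp1) and -0.021 to 0.237 (Derl2). Over all genes, 7 passed for hTyr against EYFP in IP (14 with all 22 libraries in one fit, 3 to 11 with an animal left out), 1 in input (0 with all 22 libraries, 0 to 2 with an animal left out) and 1 in the interaction (5 with the replicate block, 0 to 5 with an animal left out). The count of other ERAD genes in IP was 1, 0 without the variance trend (Dnajb9, 0.57, adjusted p = 0.112) and 0 to 1 with an animal left out. Of Ngly1, Faf1, Usp25, Yod1, Ubqln4, Ankzf1, Hspa5 and Atf6, which passed in IP against input in both treatments, Ankzf1 lost a call under these alternatives: it lost its hTyr call without animal 1, 2 or 4 (-0.45 to -0.66). With the replicate block 30 of the 63 other ERAD genes passed in EYFP and 33 in hTyr (25 and 32 without it), 8 of the 9 genes passed in EYFP and 5 in hTyr, and it gave no call among the 9 in the interaction. The cause of these differences was not tested.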

Other observations

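The 63 other ERAD genes fall by role into 5 groups, and none of the values in this paragraph was tested as a group. Of the 10 substrate recognition genes, 5 were higher and 1 lower in IP than in input in EYFP (limma, adjusted p below 0.05), and 6 and 2 in hTyr, with median differences of 0.14 and 0.48. Of all genes 28.5% were higher and 28.1% lower in EYFP, and 27.4% and 27.0% in hTyr. The 15 membrane ligases and their partners had 1 higher and 2 lower in EYFP and 3 and 2 in hTyr, with medians of -0.083 and 0.026. Of the 6 conjugating enzymes 2 were lower in EYFP and 1 in hTyr, and the others did not pass, with medians of -0.15 and -0.11. The 15 extraction genes, cofactors of Vcp among them, had 2 higher and 3 lower in EYFP and 4 and 3 in hTyr. The 17 genes of cytosolic processing and delivery had 4 higher and 5 lower in EYFP and 6 and 5 in hTyr. With the animal as a block the lower counts in EYFP were 5 for the ligases, 3 for the conjugating enzymes and 2 for substrate recognition, and the ligases had 3 lower in hTyr, while the other counts were as given.

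Single libraries of both treatments were low or high for several of the 9 genes at once. The share over all genes was not computed for these counts, so they cannot be read as a trait of the 9. The input library of EYFP animal 5 was the lowest of its group for 6 of the 9 genes and its IP library for 4, with 1 of the 9 above the group mean in each. The input library of EYFP animal 4 was the highest of its group for 5 of the 9. Its CPM summed over all genes was 1040933, against 972556 to 998884 in the other EYFP inputs, and the part of this in the count was not tested. The IP library of hTyr animal 1 was the highest of its group for 4 of the 9 and the lowest for 2, and its input library was the lowest for 4.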
